A study of Mus musculus with 6 samples.

Results

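Dbp and Csnk1e, a transcriptional output gene of the circadian clock and a kinase that acts on clock proteins, were each represented by 1 probe among 10080 printed spots. The members were all probes whose platform gene symbol is Dbp (Entrez Gene 13170) or Csnk1e (Entrez Gene 27373), that is 2 of 9066 probes with 1 symbol. Hypothalamic RNA of male DBA/1 mice aged 8 weeks was compared on 2-colour arrays. The collagen group received 100 ul of type II collagen mixed with 100 ul of complete Freund's adjuvant, injected i.d. as the labels write it, and the control group 200 ul of the adjuvant alone by the same route. Both groups were given lipopolysaccharide at day 24, and the labels put the killing at "31" with an unclear unit. Collagen and a different adjuvant volume thus cannot be told apart. Each of 3 biological replicates was hybridised to a dye-swapped pair of arrays, 1 with collagen in Cy5 and 1 with collagen in Cy3. Whether a replicate was 1 mouse or a pool is not given in the sources used here, so p-values reflect no more than the scatter of these 3 replicates. DBA/1 mice are used as a model of collagen-induced arthritis. The hour of killing and the lighting, to which clock transcripts are tied, are not given in the sources used here.

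In mammals the master circadian pacemaker lies in the suprachiasmatic nucleus of the hypothalamus. The transcription factors CLOCK and BMAL1 bind E-boxes and drive the period and cryptochrome genes, whose proteins return to the nucleus and repress them. Dbp is driven by the same pair of factors, has one of the most strongly cycling transcripts in many tissues, and encodes a PAR bZIP factor that binds D-boxes in further genes. Csnk1e encodes casein kinase 1 epsilon, which phosphorylates period proteins and so sets how long they last. In the Syrian hamster the tau mutation of this kinase shortens the daily period. In whole hypothalamus, fewer cells of a type and less RNA per cell cannot be told apart.

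The stretch before the start of Dbp is shown because clock factors are known to drive this gene. The letters are RefSeq's for GRCm38.p6, plus strand, chr7:45704997-45705246, which is the 250 bases before the annotated start.
Dbp: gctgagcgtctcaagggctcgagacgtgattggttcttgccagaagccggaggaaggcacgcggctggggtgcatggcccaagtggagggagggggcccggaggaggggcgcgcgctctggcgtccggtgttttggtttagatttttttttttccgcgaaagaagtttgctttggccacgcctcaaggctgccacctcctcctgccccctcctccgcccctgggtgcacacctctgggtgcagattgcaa
No base is in capitals, because none of the searched letters occurred on either strand. The search covered the E-box CACGTG, its variant CACGTT, and the D-boxes TTATGTAA and TTATGCAA. Of 32817 such windows of the same length, 6.02% held CACGTG, 3.85% CACGTT, 0.817% TTATGTAA and 0.695% TTATGCAA. This says only that these letters are not in this window. The sequences of the printed oligonucleotides were not used here.

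Directions below rest on reading channel A as Cy3 and channel B as Cy5, which follows the order of channels in the labels but is not stated, and every sign would turn if it were the other way round. Across the series 46.1% to 84.9% of spots had a ratio on an array, and 2316 probes had one on all 6 arrays and were tested. Turned to collagen over control, the log2 ratios of arrays with opposite dye orientation correlated over those probes at -0.75 to 0.05, and 8 of 9 such pairs were below 0. Pairs of the same orientation correlated at 0.07 to 0.56. The array of replicate 1 with collagen in Cy3, called the replicate 1 collagen-Cy3 array, stood apart, with an SD of log2 ratios of 1.66 against 0.38 to 0.67 on the others. The mean of each gene is therefore given with and without it. Of 14 hypothalamic marker genes 11 had a named probe and 6 a ratio on at least 4 arrays, among them Oxt, Gal, Pmch, Gnrh1, Nkx2-1 and Otp, while for Avp, Trh, Sst, Hcrt and Sim1 there were 1 to 3 arrays. Markers of neighbouring tissue were also listed, 7 for pituitary, 4 for thalamus, 3 for cortex, 3 for choroid plexus and 4 for striatum. Of those with a named probe, 3 of 4 pituitary, 2 of 3 thalamic and 2 of 2 cortical genes were read on at least 4 arrays. So were 1 of 1 choroid plexus and 0 of 1 striatal genes. The share of all probes read on at least 4 arrays is not given here, so these counts do not tell the tissues apart. The part of neighbouring tissue in the results was not tested.

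Dbp was measured in every file and did not pass the test. Each array had 3 quantification files, read as repeat scans, and the Dbp spot had both channels in 18 of 18, as did 1010 of the 2316 tested probes. Its foreground, the spot signal with its background, was 2.39 to 10.4 times the local background in the collagen channel and 1.97 to 9.01 times in the control channel. The spot lay in block row 9 and block column 3 of the printing blocks, with an area of 155 to 209 pixels.

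The background-corrected intensities of the first scan show how the channels stood before any normalization. In replicate 1 Dbp had 479062 for collagen against 345453 for control with collagen in Cy5, and 355920 for collagen against 506751 for control with collagen in Cy3. In replicate 2 it had 310595 for collagen against 320135 for control with collagen in Cy5, and 177988 against 209465 with collagen in Cy3. Replicate 3 gave 438711 for collagen against 135972 for control with collagen in Cy5, and 516390 against 501474 with collagen in Cy3. Collagen was thus the brighter channel on 3 arrays and control on 3, and in replicate 1 the brighter sample changed with the dye.

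After loess smoothing within each scan, Dbp had log2 ratios of collagen over control of -0.0058 and -1.33 in replicate 1, 0.0069 and 0.51 in replicate 2, and 0.48 and 0.16 in replicate 3, with collagen in Cy5 given before collagen in Cy3. Of the 6 arrays 4 were positive, and the replicate 1 collagen-Cy3 array was far below the rest. Among all tested probes 22.5% were positive on at least 4 arrays. The scans of 1 array lay within 0.35 of each other, and those of the low array read -1.51, -1.32 and -1.16.

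Averaged over their 2 arrays, the replicates of Dbp stood at -0.67, 0.26 and 0.32. Here and below, each SE and interval is limma's, which draws the variance of a probe towards that of all tested probes. Their mean log2 ratio was -0.03 ± 0.24 (SE, n = 3; limma adjusted p = 0.973), a ratio of 0.979 with a 95% interval of 0.646 to 1.48. Changes within that interval were not excluded by these values. With limma 0 of 2316 probes, or 0%, passed an adjusted p of 0.05, and 25, or 1.08%, had an unadjusted p under 0.05, Dbp not among them. The SD of the Dbp replicates, 0.55, was reached or exceeded by 15.9% of tested probes, whose median SD was 0.30. The limma SE of Dbp, and that of Csnk1e below, is smaller than the 3 replicate values alone would give. Without the replicate 1 collagen-Cy3 array the mean of Dbp was 0.19 ± 0.12 (SE; limma adjusted p = 0.985), and without replicate 1 it was 0.29 ± 0.13 (SE, n = 2; limma adjusted p = 0.999). Without that array alone, replicate 1 rested on its array with collagen in Cy5, so its dye difference did not cancel. The sign thus turned in both settings, and Dbp passed in neither. The sign also turned without the replicate 2 array with collagen in Cy5, to 0.054, and without the replicate 3 array with collagen in Cy3, to 0.023.

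**Figure D1:**
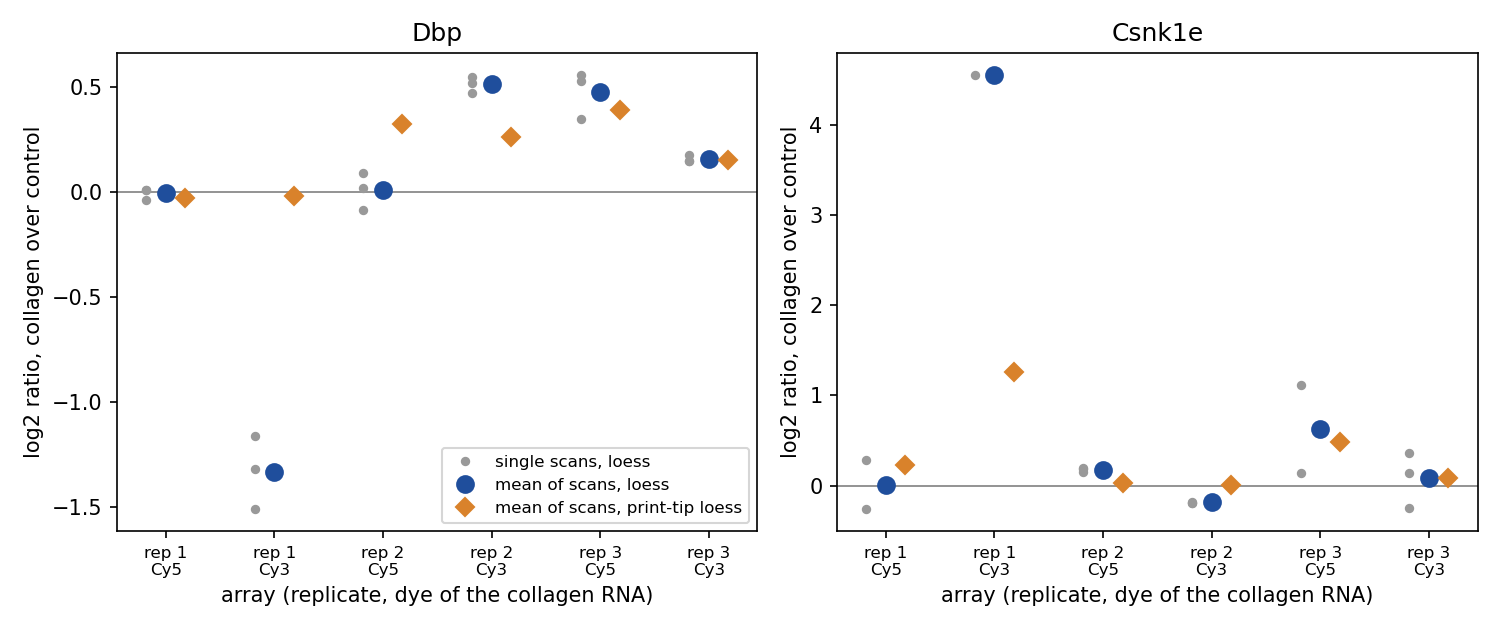
Log2 ratio of collagen over control (vertical axis) on each of the 6 arrays (horizontal axis) for Dbp at the left and Csnk1e at the right, on different vertical scales. Small grey points are single scans, blue points their mean after loess, and orange diamonds the mean after loess within printing blocks. On the replicate 1 collagen-Cy3 array the blue points read -1.33 for Dbp and 4.55 for Csnk1e, from a single scan for Csnk1e, and the diamonds -0.02 and 1.26.

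The low value of Dbp was shared with its surroundings on the slide. On the replicate 1 collagen-Cy3 array, the 131 measured spots of its printing block had a median log2 ratio of -0.86, and Dbp at -1.33 was at the 31.3 percentile of that block. Of its 8 adjacent spots 5 had a ratio there, from -1.64 to 0.02 with a median of -0.46. Prkacb, a catalytic subunit of protein kinase A printed next to it, read -0.40 on that array, and Mxra8, also adjacent, read -0.46. On the other 5 arrays the median of the Dbp block was -0.23 to 0.15.

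Loess within each printing block put Dbp at -0.03 and -0.02 in replicate 1, 0.32 and 0.26 in replicate 2, and 0.39 and 0.15 in replicate 3. On this scale both arrays of replicate 1 were near 0, and the 4 arrays of replicates 2 and 3 ran from 0.15 to 0.39. The mean was 0.18 ± 0.12 (SE, n = 3; limma adjusted p = 0.954), so it did not pass either. In the authors' deposited table, whose log base and direction are not stated, Dbp had -0.088 and -0.21 in replicate 1, 0.18 and 0.20 in replicate 2, and 0.30 and 0.12 in replicate 3. In the authors' deposited table, too, both arrays of replicate 1 lay below the 4 others. Its values as deposited correlated positively with the collagen over control ratios on every array, and taken in that direction the authors' deposited table gave Dbp a mean of 0.082 (limma adjusted p = 0.992 over 1539 probes).

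Csnk1e had the larger ratio and the poorer measurement, and it did not pass the test. Its spot had both channels in 14 of 18 scans, and 313 of 2316 tested probes, or 13.5%, had as few or fewer. It lay in block row 2 and block column 4, the last of the 4 block columns, at spot column 7 of 15 in its block. The area of the measured spot was 74 to 274 pixels.

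Csnk1e was bright in replicate 2 alone. There its foreground was 4.35 to 12.9 times the local background in the collagen channel and 5.90 to 26.8 times in the control channel. In replicates 1 and 3, over the scans with both channels, it was 1.56 to 2.04 times for collagen and 1.41 to 2.35 times for control. In channel A the spot was at the 94.2 to 95.3 percentile of measured spots on the replicate 2 arrays, against 4.95 to 43.6 on the replicate 3 arrays. On the replicate 1 array with collagen in Cy5 it was at 15.2 and 28.9 in the scans that gave a ratio. Dbp stayed between the 68.3 and 93.2 percentile of channel A on all arrays. Csnk1e thus ranked among the brighter spots in 1 replicate and among the dimmer ones elsewhere, apart from 1 array.

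**Figure D2:**
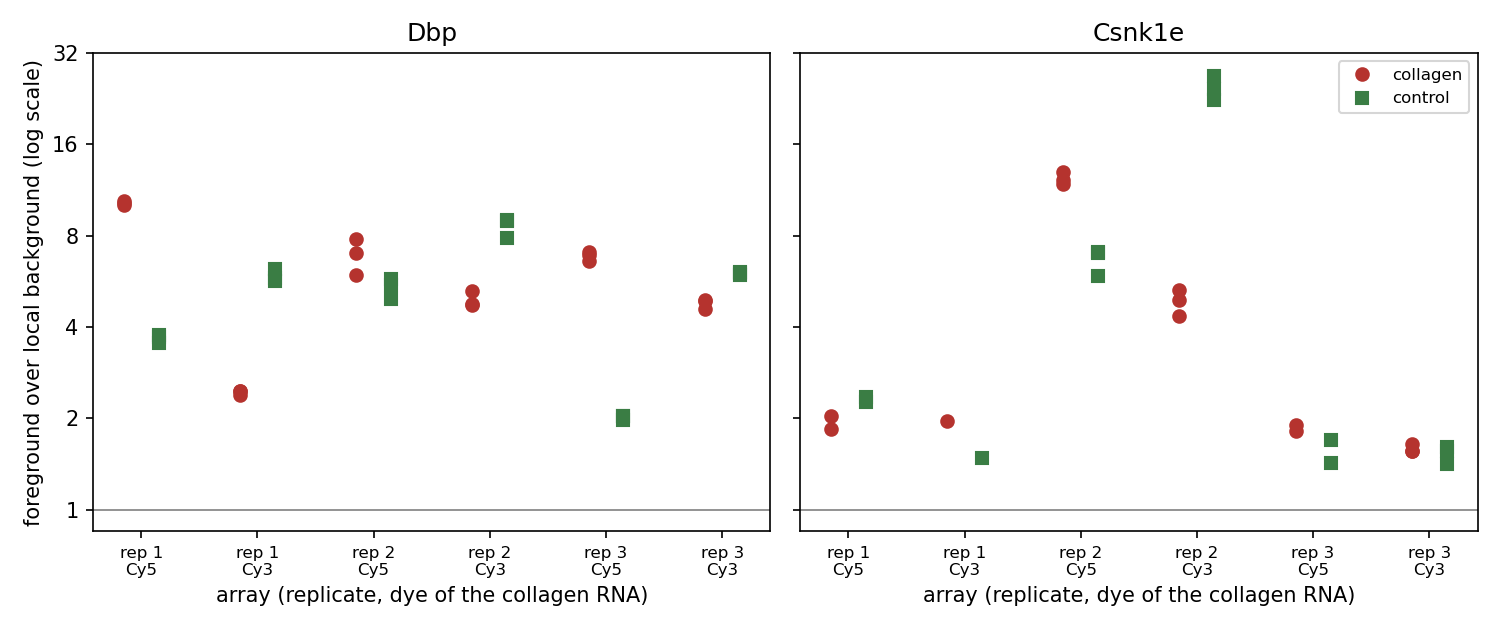
Foreground over local background on a log axis (vertical), where 1 is no signal above background, for each array (horizontal), with Dbp at the left and Csnk1e at the right. Circles are the collagen channel and squares the control channel, 1 for each scan with both channels. Csnk1e reached 26.8 in replicate 2 and stayed at or below 2.35 elsewhere, while Dbp lay between 1.97 and 10.4 on all arrays.

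The exception was the replicate 1 collagen-Cy3 array. Its first scan gave Csnk1e an intensity of 4352542 for collagen against 125087 for control, over a local background of 4560182 and 263040. The spot area was 274 pixels, where the median spot of the array had 167. In the other 2 scans of the array the spot had an area of 0 and no value in either channel, and the authors' deposited table holds no value for it there. The log2 ratio of 4.55 therefore came from 1 scan, whose foreground was 1.95 times the local background for collagen and 1.48 times for control.

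The local background of the spot was high in channel A, the collagen channel of this array. It was 16643 per pixel there, against 428 to 1010 in the first scan of the other 5 arrays, and 4.69% of spots on the array had a background at least as high. The median over the 210 spots of the Csnk1e block was 26246 per pixel, against 1353 over the whole array. In channel B the block was at 533 and the array at 487. In scan 3 of the array 67 spots of this block had an area of 0, against 6 in scan 1.

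Over the arrays Csnk1e had log2 ratios of 0.0093 and 4.55 in replicate 1, 0.18 and -0.19 in replicate 2, and 0.63 and 0.08 in replicate 3, again with collagen in Cy5 before collagen in Cy3. Apart from 4.55 every array lay between -0.19 and 0.63. Csnk1e was positive on 5 of 6 arrays, as were 4.27% of tested probes on at least 5. In replicate 2, where the spot was bright and the scans of an array agreed within 0.05, the values of the dye-swapped arrays had opposite signs and nearly equal size. The scans of the dimmer replicates spread wider, at 1.12 and 0.14 on the replicate 3 array with collagen in Cy5 and from -0.25 to 0.36 on its dye swap.

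The replicates of Csnk1e stood at 2.28, -0.0047 and 0.36, with an SD of 1.23 that 1.86% of tested probes reached or exceeded. Their mean log2 ratio was 0.88 ± 0.45 (SE, n = 3; limma adjusted p = 0.872), a ratio of 1.84 with a 95% interval of 0.850 to 3.97. Of all tested probes 24, or 1.04%, had a mean at least as high, Csnk1e included, and 23 of the 24 lay in block column 4, which held 639 of the 2316. Without the replicate 1 collagen-Cy3 array the mean of Csnk1e was 0.12 ± 0.12 (SE; limma adjusted p = 0.985), and without replicate 1 it was 0.18 ± 0.15 (SE, n = 2; limma adjusted p = 0.999). Here too the dye difference of replicate 1 did not cancel when only that array was left out. The mean of Csnk1e was thus several times smaller without that array, and it passed in none of these settings.

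The spots around Csnk1e moved with it on that array. Its block had a median log2 ratio of 2.58 over 129 spots, and the whole of block column 4 one of 1.60, while Csnk1e was at the 92.2 percentile of its block. Of the 8 adjacent spots 7 had a ratio there, from 0.02 to 4.55 with a median of 2.78. Rapsn, which encodes a protein that clusters acetylcholine receptors at the neuromuscular junction, was printed next to Csnk1e and read 4.55 on that array, against -0.40 to 0.24 on the other 5. Slc38a1, a glutamine transporter also printed next to it, read 0.02 on that array and Ppp1r1a, an inhibitor subunit of protein phosphatase 1, 0.18. After loess within printing blocks Csnk1e had 0.23 and 1.26 in replicate 1, 0.03 and 0.0040 in replicate 2, and 0.48 and 0.09 in replicate 3. On this scale both arrays of replicate 2, where the spot was bright, were near 0, and the highest value was on the replicate 1 collagen-Cy3 array. The mean of Csnk1e was 0.35 ± 0.17 (SE, n = 3; limma adjusted p = 0.954). In the authors' deposited table the other 5 arrays gave 0.0055 in replicate 1, 0.11 and -0.020 in replicate 2, and 0.0046 and 0.017 in replicate 3.

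**Figure D3:**
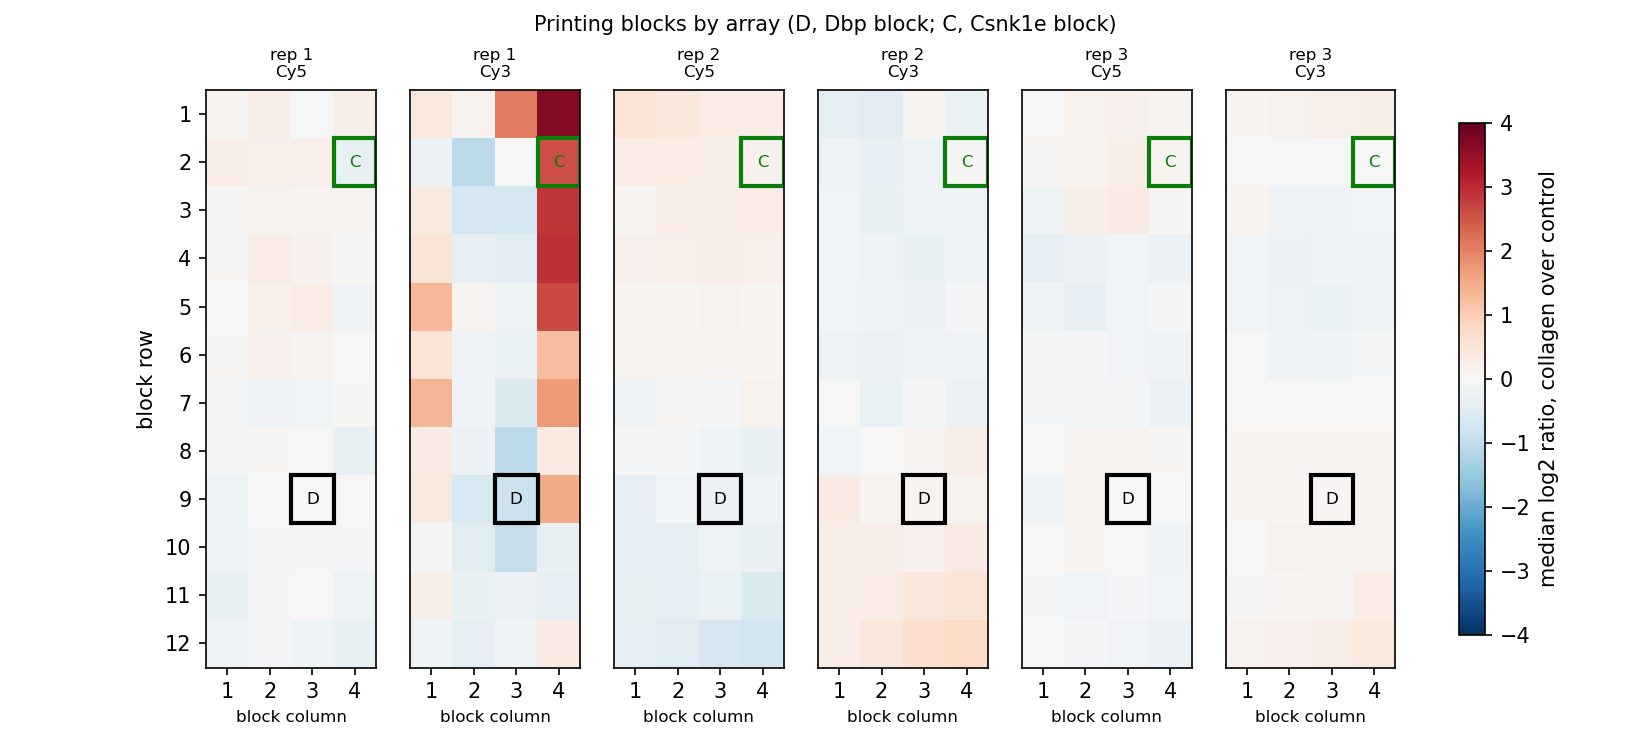
Median log2 ratio of collagen over control in each of the 48 printing blocks (4 columns by 12 rows, laid out as on the slide) for the 6 arrays, with red for positive and blue for negative medians. The boxes mark the blocks of Dbp (D) and Csnk1e (C). On the replicate 1 collagen-Cy3 array the medians were -0.86 in the Dbp block and 2.58 in the Csnk1e block, and on the other arrays both blocks lay between -0.28 and 0.16.

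The mean of channel B over channel A across a dye-swapped pair holds a channel difference and not a collagen difference, if the arrays were swapped as labelled. For Dbp this component was 0.66, -0.25 and 0.16 in replicates 1, 2 and 3, with a mean of 0.19 ± 0.25 (SE, n = 3; limma adjusted p = 0.818). For Csnk1e it was -2.27, 0.18 and 0.27, with a mean of -0.61 ± 0.43 (SE, n = 3; limma adjusted p = 0.660). Neither gene passed, and 10 of 2316 probes, or 0.432%, did. In replicate 1 the channel component of Csnk1e had nearly the same size as its collagen value of 2.28, since both came from the same array.

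Dbp and Csnk1e stood on opposite sides of 0 on the replicate 1 collagen-Cy3 array, and their correlation changed sign without it. Over the 6 arrays their log2 ratios correlated at r = -0.92, and over the 5 arrays without the replicate 1 collagen-Cy3 array at 0.18. With loess within printing blocks these values were -0.46 and 0.17. They describe the arrays of 3 replicates, which are not independent samples.

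The genes whose ratios were most like those of Dbp over the 6 arrays were Pdgfb, a platelet-derived growth factor, Tmem129, Fkbp1a, a protein that binds the drug FK506, Dusp12, a phosphatase, and Hpca, the neuronal calcium sensor hippocalcin. Their r with Dbp was 0.99 to 1.00, and 0.95 to 0.97 over the 5 arrays without the replicate 1 collagen-Cy3 array. The genes most like each member were picked by r over the same 6 arrays, so values over 5 of those are no separate check. Over the 6 arrays r was 0.90 to 0.96 with blocks centred on their median and 0.36 to 0.90 after loess within printing blocks. All 5 lay in block rows 9 to 12, with 3 in the block column of Dbp and 1 in its block. Of the 2316 tested probes 704 lay in that block column and 93 in that block. Hpca, the one in the block of Dbp, had the highest of the 5 values after loess within printing blocks, 0.90. The 5 genes most like Csnk1e were Sntg1, a syntrophin, Gcsh, a subunit of the glycine cleavage system, 5730460C07Rik, Nfu1, an iron-sulfur cluster protein, and Rcn2, a reticulocalbin. Their r with Csnk1e was 0.99 to 1.00, and 0.67 to 0.95 over the 5 arrays without the replicate 1 collagen-Cy3 array. All 5 lay in block column 4, which held 639 of the 2316 tested probes, within rows 1 to 5. Over the 6 arrays r was between -0.73 and 0.96 with blocks centred on their median and between -0.78 and 0.91 after loess within printing blocks, with Sntg1 and 5730460C07Rik below 0 in both.

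Few other clock genes could be compared. Of a list of 49 genes of the clock and its outputs, 25 had a named probe and 4 were tested. They are Dbp, Csnk1e, Csnk1a1, which encodes the alpha isoform of casein kinase 1, and Gsk3b, a kinase that also phosphorylates clock proteins. None of the 4 passed in either direction, and 0 had an unadjusted p under 0.05 with limma. Their median log2 ratio was -0.07, against -0.09 over all tested probes. Csnk1a1 had replicate values of -0.38, -0.07 and 0.13 and a mean of -0.11 ± 0.17 (SE, n = 3; limma adjusted p = 0.872). Gsk3b had -0.47, -0.05 and 0.02 and a mean of -0.17 ± 0.18 (SE, n = 3; limma adjusted p = 0.872). Both read lowest on the replicate 1 collagen-Cy3 array, at -1.30 and -1.41, as Dbp did. With loess within printing blocks they were at -0.06 and -0.01. Csnk1a1 had a second probe with a ratio on 5 arrays, which was not tested and read -0.97 in replicate 1 and -0.12 in replicate 2.

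The core loop itself was thinly measured. Per3 and Cry2, a period and a cryptochrome gene, had a ratio on 5 arrays and Cry1 on 4. Clock, its partner gene Npas2 and Nr1d2, a nuclear receptor of the second loop, had a ratio on 2 arrays, and Per2 on 1. Among the D-box factors, Nfil3, a repressor that binds the same elements as Dbp, had 5 arrays and Tef, a PAR bZIP relative of Dbp, had 2. Csnk1d, the close relative of Csnk1e that also acts on period proteins, had 4 arrays. Casein kinase 2 was read through Csnk2a1 on 5 arrays and Csnk2a2 on 3. Six6, a homeobox gene needed for the suprachiasmatic nucleus, had 5 arrays, the pacemaker peptide gene Vip 4, Avp and the repressor gene Bhlhe41 3 each, and Csnk1g2 and Bhlhe40 2 each. Zfhx3 had 2 probes with 1 and 2 arrays, and Usp2 and Prok2 had 1 array each. None of these was tested. No named probe for the other 24 genes, among them Arntl, which encodes BMAL1, Per1 and Nr1d1, was found in the table used here.

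**Figure D4:**
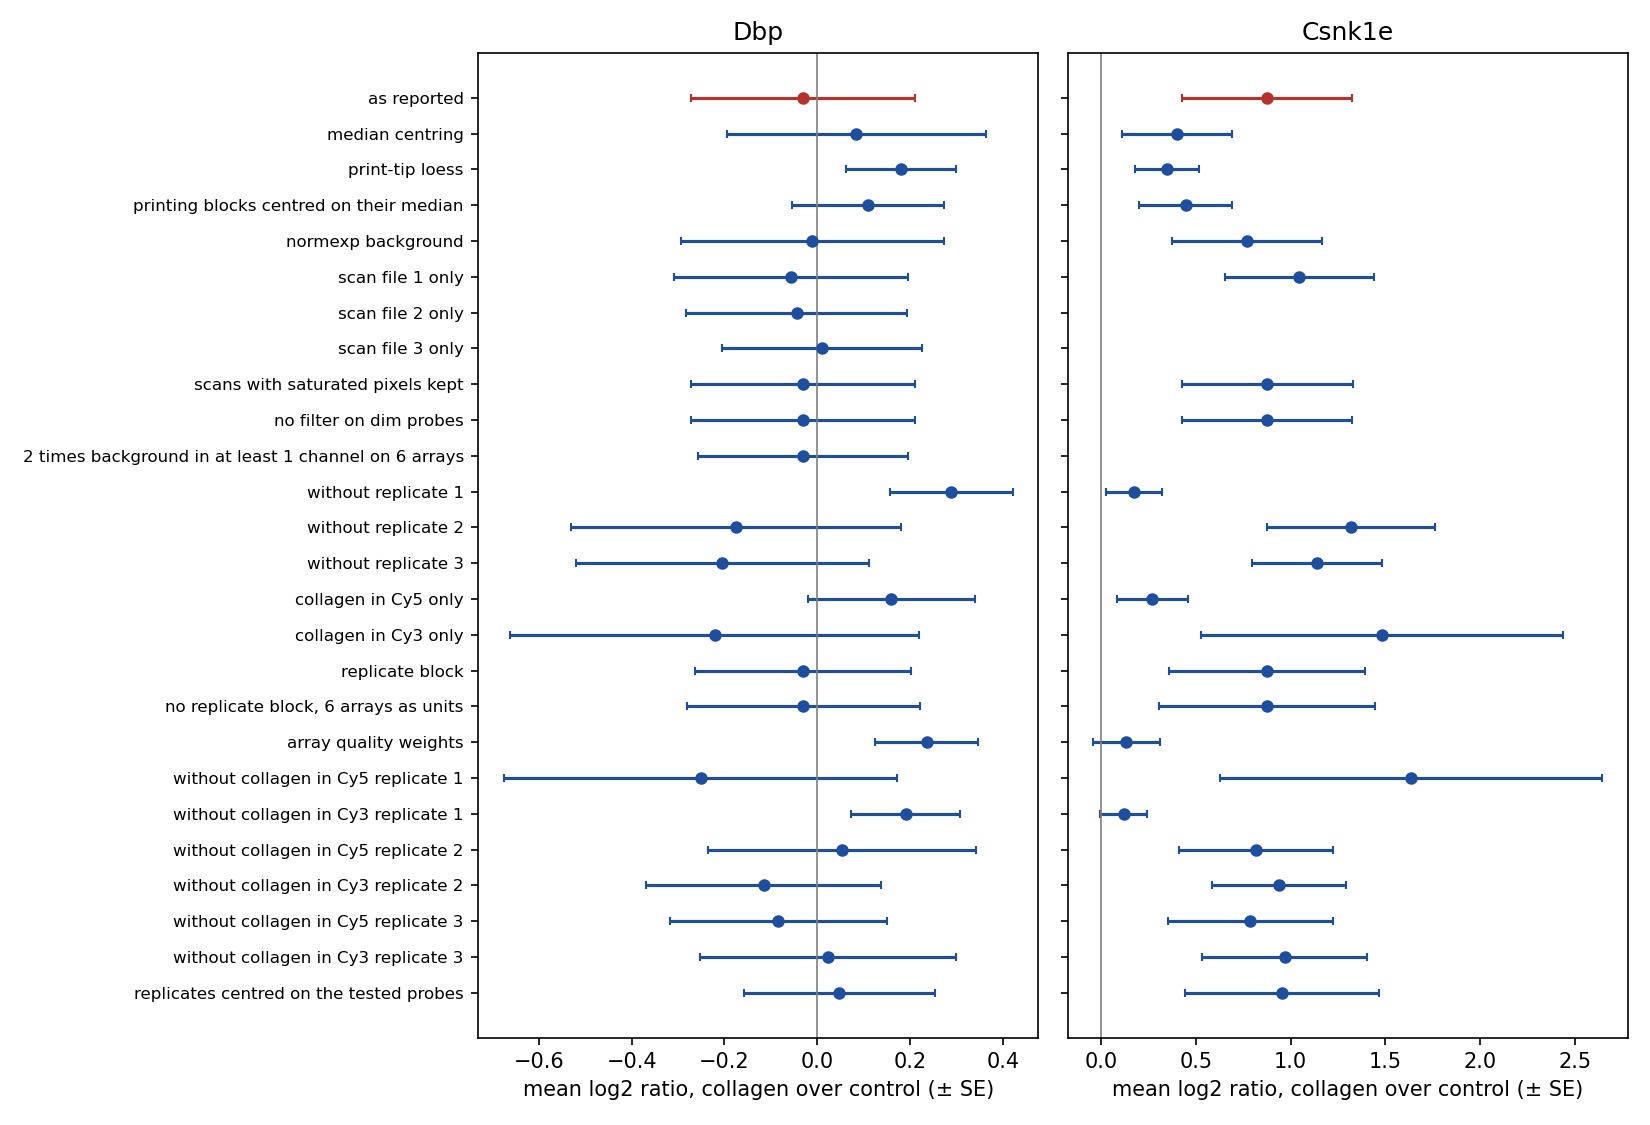
Mean log2 ratio of collagen over control (horizontal axis, bars are ± SE) under each processing setting (vertical axis) for Dbp at the left and Csnk1e at the right, on different scales, with the value as reported in red at the top. Dbp ran from -0.25 to 0.29 and changed sign between settings, and Csnk1e ran from 0.12 to 1.64, lowest without the replicate 1 collagen-Cy3 array. Settings with no point could not test the gene.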

How the data were processed

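Per the labels, 3 replicates with 2 dye-swapped arrays each were measured. Per the file headers, the deposited values were spot intensities in channels A and B, already corrected for background, beside local background and spot area, and the deposited saturation factor is a fraction. The deposited table of log ratios has no stated base. Aligning its rows to the spots by block and position gave correlations of 0.68 to 0.91 with the block-smoothed collagen over control ratios. Because intensities were already corrected, log2 ratios of channel B over A were taken as they stood and smoothed by loess (span 0.3) in each scan. Scans were averaged, signs were set so that positive means more in collagen, and each dye-swapped pair was averaged to 1 value. A tested probe had a ratio on 6 arrays and exceeded 1.5 times local background in 1 channel on at least 4. Replicate means were tested against 0 with limma 3.58.1 (R 4.3.3, two-sided, Benjamini-Hochberg over 2316 probes). The method was checked only on simulated replicates with independent normal noise. Those held no dye effect, block shift or outlying array, so the check does not cover such features. Loess within blocks used a span of 0.5. Array pairing comes from the study's dye-swap design. Deviations from the orientation means correlated within replicates 1, 2 and 3 at -0.12, -0.38 and 0.09. Members and lists were chosen with earlier results of these data known. Named were both members, the measured clock genes, adjacent probes and the 5 probes most correlated with each member. Figures were drawn with matplotlib 3.10.9.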

Additional observations from a re-analysis of the deposited data

Results flagged for a closer look

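For 3 measures 1 of the 6 arrays lay far from its neighbours by Dixon's gap criterion, and each time it was the replicate 1 collagen-Cy3 array. Dbp had a log2 ratio of -1.33 there, with the nearest array at -0.0058. Csnk1e had 4.55, with the nearest array at 0.63. The channel A background of the Csnk1e spot was 16643 per pixel in the first scan, with the nearest array at 1010. Chance alone sets an array apart in about 1 in 20 groups of values of equal spread. The log2 ratios of this array had an SD of 1.66 against 0.38 to 0.67 on the others, so that rate does not apply to it. The share of all tested probes that met the criterion is not given here.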

How the results depend on the processing

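Neither gene passed the adjusted threshold under any of the alternatives that could test it, 19 planned ones for Dbp, 15 for Csnk1e and 7 more for each (leaving out single arrays and centring replicates on the tested probes) that were chosen after seeing the data. Csnk1e had a positive mean in all of them. Without the filter on dim probes the same 2316 probes were tested with the same values, so that setting is no separate check. Keeping scans with saturated pixels left the means of both genes unchanged. The mean of Dbp, -0.03 as reported, turned to 0.084 with median centring, 0.18 with print-tip loess, 0.11 with blocks centred on their median, 0.0098 with scan file 3 alone, 0.082 with the authors' deposited log ratios, 0.16 with collagen in Cy5 only, 0.24 with array quality weights and 0.048 with replicates centred on the tested probes. Leaving out a replicate gave -0.20 to 0.29 for Dbp and 0.18 to 1.32 for Csnk1e, and leaving out an array -0.25 to 0.19 and 0.12 to 1.64. With 1 array left out, the dye difference of its replicate did not cancel. The median of the 4 tested clock genes ran from -0.22 to 0.10 over its alternatives. The number of probes past the threshold, 0 as reported, was 34 with collagen in Cy5 only, 0 to 30 without a replicate and 0 to 1 without an array, with neither gene among them. With collagen in 1 dye only, collagen and dye cannot be told apart, which holds for these 34 probes and for the 0.16 of Dbp. In the paired analysis with the replicate block, the means were unchanged at -0.03 (limma adjusted p = 0.966) for Dbp and 0.88 (limma adjusted p = 0.833) for Csnk1e. Csnk1e could not be tested with scan file 2 or 3 alone or in the authors' deposited table, because at least 1 array then had no value. It also missed the limit of 2 times background on 6 arrays, since both replicate 3 arrays stayed below it in both channels. Low signal over background in replicates 1 and 3 limits Csnk1e, and the cause of the differences between settings was not tested.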
